A study of Mus musculus with 30 samples.

Results

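The 54 genes described here act in G2 and mitosis. They were taken by symbol from tables of RNA-seq counts over exons (20300 genes) and over introns (17916 genes), and all 54 were found in both tables and passed the filter on low counts. The RNA came from 129/Ola mouse embryonic stem (ES) cells kept in serum and LIF. The line, EKOiE-Ccna-Gfp, lacks endogenous Esrrb, an orphan nuclear receptor of the ES cell transcription network, and carries a doxycycline (DOX)-inducible Esrrb transgene and a Ccna2-Gfp reporter, which served to sort early G1, late G1 and G2 cells. The 6 RNA-seq groups were these 3 phases 24 h after DOX withdrawal and the same 3 phases with DOX, each with 3 libraries, so that the knockout, the transgene and the reporter were shared by all 18 libraries and no wild-type cells were included. Esrrb binding had been mapped by ChIP-seq in mitotic cells collected by shake-off (2 libraries after 48 h of DOX withdrawal and 4 with DOX) and in asynchronous cells, called interphase here (2 after withdrawal for 48 h and 4 with DOX). Those cells were EKOiE, except that replicate 2 of both DOX groups came from wild-type E14Tg2a ES cells. The labels do not say whether replicates came from separate cultures, so that a p-value covers no more than the spread between these samples, which may be technical.

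Cells enter mitosis when cyclin B activates the kinase Cdk1, an event released by the Cdc25 phosphatases and amplified by Plk1 and the Aurora kinases. Kinesins, microtubule-binding proteins and kinetochores then build the spindle, condensins and topoisomerase II compact the chromosomes, the spindle checkpoint holds the anaphase-promoting complex, and that complex finally destroys cyclin B and securin. Transcripts of these genes are known to accumulate from S phase to G2 in cycling cells. Many of their promoters are known to hold a cell cycle genes homology region (CHR), read by the DREAM and MuvB complexes, and CCAAT boxes, read by NF-Y. ES cells have a short G1 phase, and Esrrb is among the factors reported to remain on part of its sites in mitosis.

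Both promoter elements were common among these genes. A promoter window of 300 bases, 250 before and 50 after the transcription start, was found in RefSeq (assembly GRCm38.p6) for 47 of the 54 genes. A CHR core, TTTGAA or TTTAAA on either strand, was present in 37 of 47 (78.7%), against 27.8% of 27025 genes with a promoter. The box CCAAT on either strand was present in 35 (74.5%), against 37.9% of all genes. Both were present in 32 (68.1%), against 10.9% of all genes. The E2F element GCGGGAA was in 1 member promoter (2.13%), against 4.66% of all. The full Esrrb element TCAAGGTCA was in 0 member promoters, against 0.407% of all, and its shorter core AGGTCA was in 7 (14.9%), against 16% of all. Matches were counted whether or not they overlapped another motif, and they describe letters in a window, not bound sites.

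The 250 bases before the start of 7 members are shown to place these elements. Ccnb1, Cdk1, Plk1, Cdc20, Aurka and Ube2c stand for different steps of mitosis. Ccnb2 was added as the 1 member whose exonic level lay lower in all withdrawn than in all DOX libraries of every phase. Each is written 5′ to 3′ in the direction of transcription, ends 1 base before the start and has CHR cores, CCAAT boxes (or their reverse complement ATTGG) and AGGTCA cores (or their reverse complement TGACCT) in capitals.
Ccnb1: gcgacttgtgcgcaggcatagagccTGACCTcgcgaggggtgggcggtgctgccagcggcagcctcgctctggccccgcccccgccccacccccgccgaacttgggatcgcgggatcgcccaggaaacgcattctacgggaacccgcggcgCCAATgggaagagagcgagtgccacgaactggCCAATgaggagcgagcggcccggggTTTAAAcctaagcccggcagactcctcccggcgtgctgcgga
Cdk1: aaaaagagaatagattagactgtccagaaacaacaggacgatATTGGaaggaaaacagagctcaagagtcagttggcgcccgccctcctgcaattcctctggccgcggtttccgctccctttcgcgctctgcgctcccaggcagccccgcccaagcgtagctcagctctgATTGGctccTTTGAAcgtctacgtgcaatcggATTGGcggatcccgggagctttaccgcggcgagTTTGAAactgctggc
Plk1: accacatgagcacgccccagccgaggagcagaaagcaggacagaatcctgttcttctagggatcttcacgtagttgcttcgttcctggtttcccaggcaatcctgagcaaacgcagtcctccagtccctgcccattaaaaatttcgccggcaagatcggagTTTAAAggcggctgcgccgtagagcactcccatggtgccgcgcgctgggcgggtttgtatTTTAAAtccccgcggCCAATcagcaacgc
Cdc20: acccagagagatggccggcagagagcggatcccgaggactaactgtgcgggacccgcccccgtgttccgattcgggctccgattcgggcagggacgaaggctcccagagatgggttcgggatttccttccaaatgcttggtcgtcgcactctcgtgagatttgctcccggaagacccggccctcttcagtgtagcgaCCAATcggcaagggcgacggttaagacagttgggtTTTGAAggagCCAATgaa
Aurka: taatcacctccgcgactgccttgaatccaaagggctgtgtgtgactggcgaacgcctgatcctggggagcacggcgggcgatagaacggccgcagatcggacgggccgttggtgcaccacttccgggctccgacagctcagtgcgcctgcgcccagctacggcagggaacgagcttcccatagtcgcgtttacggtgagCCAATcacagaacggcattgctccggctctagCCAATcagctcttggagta
Ube2c: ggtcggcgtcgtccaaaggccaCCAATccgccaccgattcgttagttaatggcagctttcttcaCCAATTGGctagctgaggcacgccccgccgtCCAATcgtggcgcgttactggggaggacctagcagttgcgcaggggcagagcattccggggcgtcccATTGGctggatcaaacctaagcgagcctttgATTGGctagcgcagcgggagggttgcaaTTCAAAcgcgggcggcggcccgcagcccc
Ccnb2: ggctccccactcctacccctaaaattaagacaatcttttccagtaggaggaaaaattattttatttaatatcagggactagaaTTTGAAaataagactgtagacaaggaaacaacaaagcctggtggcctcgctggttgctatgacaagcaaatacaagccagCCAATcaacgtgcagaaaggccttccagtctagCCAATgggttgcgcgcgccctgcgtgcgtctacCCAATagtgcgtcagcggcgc
In GRCm38.p6 these stretches are chr13:100786487-100786736 on the minus strand, chr10:69352913-69353162 (minus), chr7:122159185-122159434 (plus), chr4:118437344-118437593 (minus), chr2:172370571-172370820 (minus), chr2:164769679-164769928 (plus) and chr9:70421555-70421804 (minus). The last CHR core before the start began 42 bases before it in Ccnb1, 15 in Cdk1, 29 in Plk1, 18 in Cdc20, 29 in Ube2c and 167 in Ccnb2. An AGGTCA core lay in the Ccnb1 stretch alone among the 7, on the other strand. Aurka had 0 CHR cores before its start and 2 within the 50 bases after it. Plk1 and Ccnb2 each had 1 there as well, besides those before the start. The Ube2c stretch held 6 CCAAT boxes, the largest number among the 7, and part of these overlapped in CCAATTGG.

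The libraries need a description before the phases are compared. Exonic totals ran from 11.1 to 31.8 M counts and intronic totals from 6.1 to 20.8 M (M, mega). For each pair of the 18 libraries, the median over 11222 genes of a chi-square ratio was taken, which is 1 where a pair differs by sampling noise alone. It was between 1.04 and 1.2 for 5 pairs and 2.72 for a sixth, against 5.01 or more for every other one of the 153 pairs and a lowest value of 5.45 between libraries of a group. The 6 pairs were DOX replicate 2 of early and late G1 (1.04), withdrawn replicate 2 of early G1 and G2 (1.06), DOX replicate 1 of late G1 and G2 (1.1), withdrawn replicate 3 of late G1 and G2 (1.2), DOX replicate 3 of early G1 and G2 (1.2), and withdrawn replicate 1 of early and late G1 (2.72). Each pair shares its DOX state and replicate number and differs in its phase label. Libraries of different phase labels thus differed by no more than sampling noise or little more, which the labels do not account for and which touches every phase comparison below. The 6 libraries with no such partner are early G1 withdrawn 3 and DOX 1, late G1 withdrawn 2 and DOX 3, and G2 withdrawn 1 and DOX 2. Phase comparisons are therefore given over all 18 libraries and over these 6, a subset chosen after the data were seen, from the agreement over all genes. Esrrb, counted from transgene and locus together, stood at 140 to 195 counts per M counts (CPM) after withdrawal and 203 to 341 CPM with DOX. Ccna2, the reporter's gene, stood at 257 to 386 CPM in early G1, 296 to 410 CPM in late G1 and 386 to 522 CPM in G2. Of 8 ES cell markers, 8 passed the filter on low counts, with a summed level of 3986 to 5888 CPM. Markers of other lineages summed to 105.5 to 228 CPM for 6 primitive endoderm genes and 103 to 186 CPM for 4 neural genes, all of which passed the filter. In the other lists only genes that passed the filter entered the sums. These were 6.65 to 12.2 CPM for 2 of 6 fibroblast or feeder markers and 2.36 to 5.39 CPM for 2 of 4 mesendoderm markers. For 2 of the 3 trophoblast markers measured the sum was 10.3 to 20.6 CPM.

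**Figure D1:**
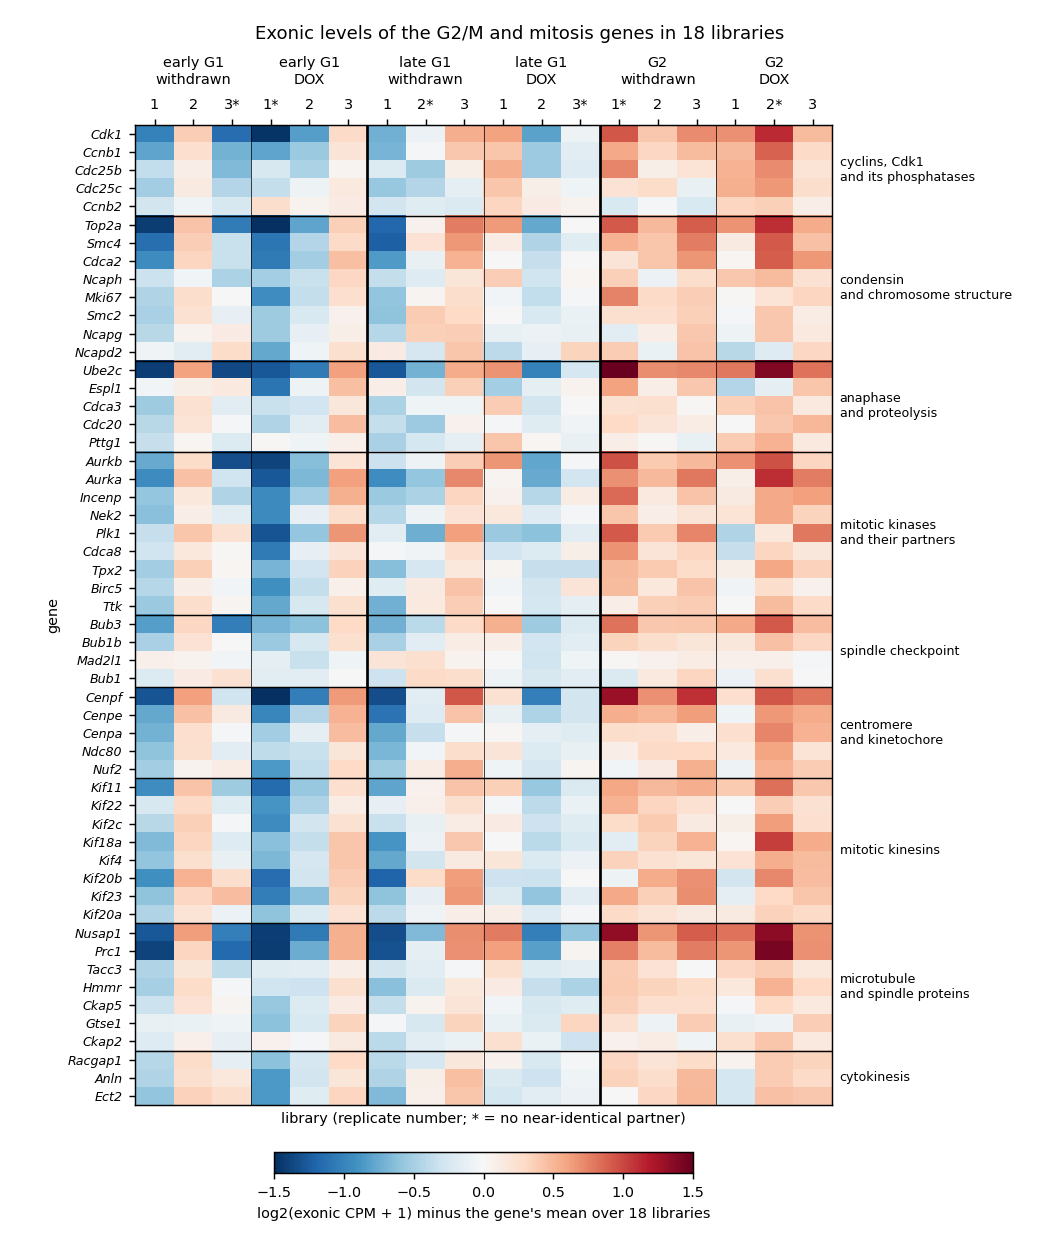
Exonic level of each of the 54 genes (down the page, by role) in each of the 18 libraries (across, by phase and DOX state), as the log2 difference from the gene's own mean over the libraries. In early G1, withdrawn replicate 2 and DOX replicate 3 were the 2 highest libraries in 45 of 54 genes, and these are the libraries with a near-identical G2 partner.

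The first comparison asks how far these transcripts differ between sorted phases. Across all 18 libraries, exonic levels were higher in G2 than in early G1 in 54 of 54 genes, with a median difference of 0.45 on the log2 scale, and higher in G2 than in late G1 in 54 of 54, with a median of 0.42. The medians over all 14092 genes tested were 0.00 and -0.01. Late G1 differed from early G1 by a median of 0.06. With edgeR's quasi-likelihood test and Benjamini-Hochberg adjustment over all genes, 0 of 54 genes passed an adjusted p of 0.05 in any of the 3 phase comparisons, and the background was 0% of all genes in each. At an unadjusted p below 0.05, 40 of 54 genes were higher in G2 than in early G1, against 3.69% of all genes. The count was 32 for G2 over late G1, against 2.18%, and 0 for late over early G1, against 1.03%. DESeq2 likewise called 0 members in all 3 comparisons (0.0071%, 0% and 0% of all genes) and gave 42, 32 and 0 higher at an unadjusted p below 0.05 (4.22%, 2.26% and 1.41% of all). Levels of all 6 G2 libraries lay above all 6 early G1 libraries in 7 of 54 genes (Ccnb1, Cdk1, Top2a, Aurkb, Bub3, Nusap1 and Ube2c), against 0.142% of all genes, and above all 6 late G1 libraries in 4 (Bub1b, Cenpa, Kif20a and Ube2c), against 0.121%.

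Medians over the 54 genes, as differences from each gene's mean, show the libraries singly. In early G1 they were -0.53, 0.25 and -0.13 log2 after withdrawal and -0.78, -0.30 and 0.26 with DOX. In late G1 they were -0.55, -0.12 and 0.31 after withdrawal and 0.07, -0.30 and -0.10 with DOX. In G2 they were 0.37, 0.28 and 0.38 after withdrawal and 0.11, 0.52 and 0.33 with DOX. All G2 libraries were above 0, as were 2 libraries each of early and late G1, which are those near-identical to a G2 library. Both DOX states showed the same order. After withdrawal the median G2 minus early G1 difference was 0.39 and with DOX it was 0.50, and the G2 minus late G1 medians were 0.39 after withdrawal and 0.40 with DOX. The count of 40 at an unadjusted p was 23 without early G1 withdrawn replicate 1 and 25 without early G1 DOX replicate 1. The count of 32 was 16 without late G1 withdrawn replicate 1, 17 without G2 DOX replicate 2 and 18 without late G1 DOX replicate 2. In bulk samples, fewer cells in G2 and less RNA per cell cannot be told apart.

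**Figure D2:**
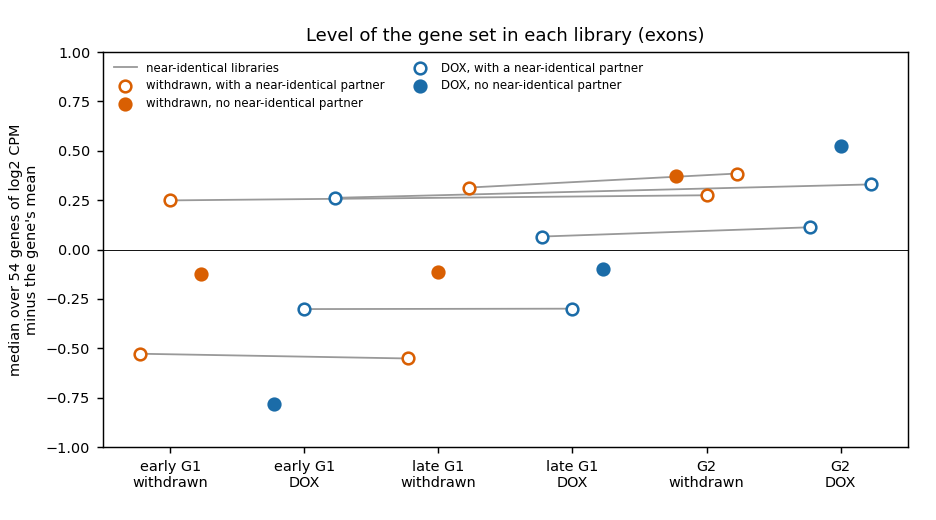
Median over the 54 genes of the exonic log2 CPM minus the gene's mean (y axis) in each library, by phase and DOX state (orange, withdrawn; blue, DOX). Grey lines join near-identical libraries and filled points have no such partner; early G1 withdrawn 2 (0.25) and DOX 3 (0.26) lie level with G2 libraries.

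In the 6 libraries with no near-identical partner the difference was wider. This choice took out every G1 library with a median above 0 (0.25 and 0.26 in early G1, 0.31 and 0.07 in late G1). It also took out G1 libraries below 0 (-0.53 and -0.30 in early G1, -0.55 and -0.30 in late G1). How far the choice itself widened the difference was not tested, so the calls in this subset are no independent support for it. The median G2 minus early G1 difference was 0.83 log2, against 0.01 for all genes. The edgeR test, with phase and DOX state as terms and 2 residual degrees of freedom, called 14 of 54 genes higher in G2 than in early G1. Only 24 of the 13799 genes tested, 0.174%, were called higher, so that 14 of the 24 were members. G2 lay above late G1 by a median of 0.55 log2 and in 4 called genes (Nusap1, Ube2c, Bub3 and Cdk1), against 9 genes in all, 0.0652%. Late G1 lay above early G1 by a median of 0.32 log2 with 0 called genes, against 0% of all. Without adjustment, 12 genes were higher in late G1, against 1.59% of all. DESeq2 called 18, 10 and 4 members higher in these 3 comparisons, against 0.297%, 0.152% and 0.029% of all genes. The 2 libraries per phase are 1 of each DOX state, and phase is not balanced against replicate number in this subset. Values of both G2 libraries lay above both early G1 libraries in 42 of 54 genes, against 14.9% of all genes.

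Single libraries moved these counts. Leaving out 1 of the 6 leaves its phase with 1 library and the fit with 1 residual degree of freedom, so that the lone library is assumed to vary like those of the other groups. Without early G1 withdrawn replicate 3 the G2 minus early G1 count was 25, 21 without late G1 withdrawn replicate 2 or late G1 DOX replicate 3, and 11 to 18 without each of the others. The G2 minus late G1 count was 2 without late G1 withdrawn replicate 2, 7 without G2 withdrawn replicate 1, and 10 without early G1 DOX replicate 1 or early G1 withdrawn replicate 3. The late minus early G1 count of 0 became 6 without early G1 withdrawn replicate 3, 4 without G2 withdrawn replicate 1 or G2 DOX replicate 2 and 1 without late G1 withdrawn replicate 2, and its unadjusted count ran from 7 (without early G1 DOX 1 or late G1 DOX 3) to 32 (without early G1 withdrawn 3).

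**Figure D3:**
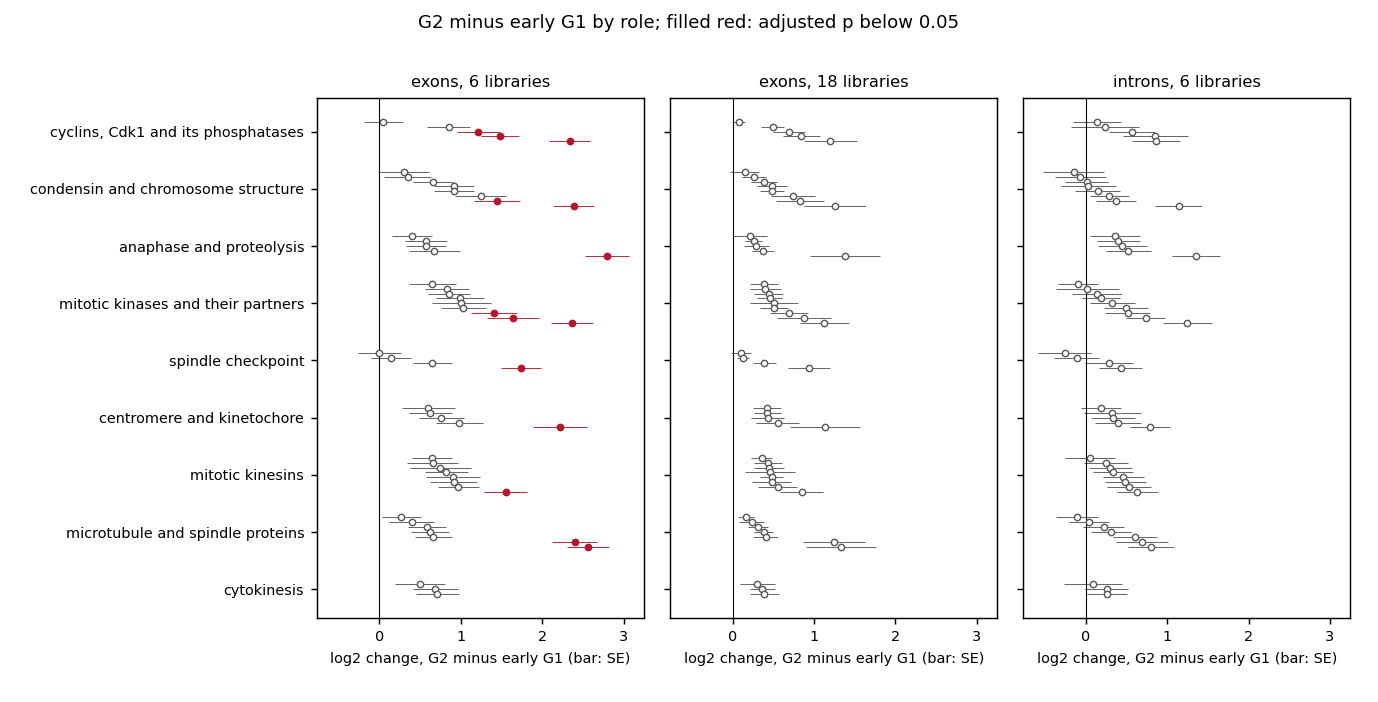
G2 minus early G1 difference (log2, x axis) of each of the 54 genes by role, for exons in the 6 libraries with no near-identical partner, exons in all 18 libraries and introns in the 6 libraries. Bars are standard errors, and the 14 filled red points, all in the first panel, passed an adjusted p of 0.05.

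Cyclin B, Cdk1 and the Cdc25 phosphatases were led by Cdk1, the kinase that starts mitosis (chr10:68799382-68815660, minus strand, mm9, as are all gene positions below). After withdrawal, exonic Cdk1 stood at 99.9, 262 and 91.4 CPM in early G1, 123, 191 and 296 CPM in late G1 and 389, 269.8 and 333 CPM in G2. With DOX, exonic Cdk1 stood at 72.8, 114 and 249 CPM in early G1, 309, 116 and 193 CPM in late G1 and 326, 444 and 284 CPM in G2. All G2 libraries lay above all early G1 libraries. The G2 minus early G1 difference was 2.34 ± 0.25 log2 in the 6 libraries (edgeR adjusted p = 0.000111) and 1.20 ± 0.33 log2 in all 18 (SE throughout for log2 differences). Ccnb1, cyclin B1, is the partner of Cdk1 (chr13:101548693-101556441, minus strand). After withdrawal, exonic Ccnb1 stood at 261, 539.5 and 276 CPM in early G1, 279, 447 and 598 CPM in late G1 and 673, 560.5 and 631 CPM in G2. With DOX, exonic Ccnb1 stood at 262, 307 and 518 CPM in early G1, 607, 310.3 and 405 CPM in late G1 and 633, 837 and 552 CPM in G2. The lowest G2 library stood just above the highest early G1 library. Ccnb1 differed by 1.48 ± 0.23 log2 in the 6 libraries (edgeR adjusted p = 0.00275) and by 0.84 ± 0.23 log2 in all 18.

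Cdc25b, a phosphatase that activates Cdk1, had lower counts. After withdrawal, exonic Cdc25b stood at 21.02, 29.5 and 16.98 CPM in early G1, 23.5, 18.5 and 29.1 CPM in late G1 and 46.2, 29.1 and 31.7 CPM in G2. With DOX, exonic Cdc25b stood at 23.03, 19.4 and 28.1 CPM in early G1, 40.5, 18.5 and 23.8 CPM in late G1 and 39.7, 45.5 and 31.7 CPM in G2. Early G1 and G2 overlapped by less than 1 CPM. Its difference was 1.22 ± 0.27 log2 in the 6 libraries (edgeR adjusted p = 0.0324). Cdc25c, the related phosphatase, did not pass. After withdrawal, exonic Cdc25c stood at 18.1, 28.98 and 19.1 CPM in early G1, 17.4, 19.2 and 23.9 CPM in late G1 and 30.7, 32.1 and 24.3 CPM in G2. With DOX, exonic Cdc25c stood at 20.3, 24.8 and 29.1 CPM in early G1, 35.3, 27.9 and 25.1 CPM in late G1 and 38.4, 41.8 and 31.7 CPM in G2. Its 6-library value was 0.85 ± 0.26 log2 (edgeR adjusted p = 0.265). Ccnb2, cyclin B2, hardly differed between phases. Its G2 minus early G1 value was 0.05 ± 0.24 log2 in the 6 libraries and 0.07 ± 0.08 log2 in all 18, whereas it was ordered by DOX state, as described with the withdrawal below. The group thus held 3 called genes of 5, with a 6-library median of 1.22 log2.

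Among the 9 mitotic kinases and their partners, 3 passed in the 6 libraries, and the median G2 minus early G1 difference was 1.01 log2. Aurkb, the kinase of the chromosomal passenger complex, lies at chr11:68859144-68865164, plus strand. After withdrawal, exonic Aurkb stood at 32.2, 66.7 and 21.2 CPM in early G1, 43.7, 51.9 and 71.3 CPM in late G1 and 107, 72.2 and 77.1 CPM in G2. With DOX, exonic Aurkb stood at 20.3, 34.8 and 63.2 CPM in early G1, 87.2, 31.4 and 54.04 CPM in late G1 and 89.1, 107 and 68.8 CPM in G2. All 6 G2 libraries were above all 6 early G1 libraries. Its difference was 2.36 ± 0.26 log2 in the 6 libraries (edgeR adjusted p = 0.000134). Incenp is the scaffold of the same complex. After withdrawal, exonic Incenp stood at 61.3, 102 and 66.6 CPM in early G1, 62.2, 65.7 and 115 CPM in late G1 and 167, 102 and 124 CPM in G2. With DOX, exonic Incenp stood at 47.02, 64.1 and 134 CPM in early G1, 95.9, 68.2 and 99.6 CPM in late G1 and 101, 136 and 141 CPM in G2. Its phases overlapped in the 18 libraries, and it differed by 1.41 ± 0.29 log2 in the 6 (edgeR adjusted p = 0.0178). Birc5, survivin, the third of these subunits, did not pass. After withdrawal, exonic Birc5 stood at 74.8, 109 and 98.3 CPM in early G1, 88.9, 111 and 136 CPM in late G1 and 141, 113 and 137 CPM in G2. With DOX, exonic Birc5 stood at 52.96, 78.8 and 107 CPM in early G1, 98.8, 83.8 and 116 CPM in late G1 and 97.3, 121 and 106 CPM in G2. Its value was 0.83 ± 0.27 log2 (edgeR adjusted p = 0.349).

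Aurka, the kinase of the centrosome and spindle poles, was called. After withdrawal, exonic Aurka stood at 31.6, 84.5 and 50.3 CPM in early G1, 32, 40.99 and 102 CPM in late G1 and 99.9, 87.3 and 108 CPM in G2. With DOX, exonic Aurka stood at 25.1, 38.5 and 95.6 CPM in early G1, 63.8, 36.3 and 50.8 CPM in late G1 and 65.9, 134 and 106 CPM in G2. Early G1 withdrawn 2 and DOX 3 and late G1 withdrawn 3 lay within the G2 range. Aurka differed by 1.64 ± 0.32 log2 in the 6 libraries (edgeR adjusted p = 0.0136). Plk1, which promotes mitotic entry and cytokinesis, was more scattered (chr7:129302950-129313389, plus strand). After withdrawal, exonic Plk1 stood at 40.9, 70.1 and 61.5 CPM in early G1, 46.5, 31.2 and 80.8 CPM in late G1 and 99.9, 69.02 and 88.1 CPM in G2. With DOX, exonic Plk1 stood at 20.8, 34.8 and 83.3 CPM in early G1, 35.4, 34.02 and 46.9 CPM in late G1 and 38.2, 58.7 and 91.3 CPM in G2. With DOX, 1 early G1 library stood above 2 of 3 G2 libraries. Plk1 differed by 1.01 ± 0.36 log2 in the 6 libraries and did not pass (edgeR adjusted p = 0.445).

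The spindle checkpoint genes differed among themselves. Bub3, which binds the checkpoint kinases at kinetochores, was called in both G2 comparisons. After withdrawal, exonic Bub3 stood at 83.9, 186 and 71.95 CPM in early G1, 90.3, 112 and 183 CPM in late G1 and 263, 198 and 200 CPM in G2. With DOX, exonic Bub3 stood at 91.98, 97.2 and 184 CPM in early G1, 216, 103 and 129 CPM in late G1 and 222, 283 and 206 CPM in G2. All G2 values were above all early G1 values. The G2 minus early G1 difference was 1.74 ± 0.24 log2 in the 6 libraries (edgeR adjusted p = 0.00145) and the G2 minus late G1 difference 1.18 ± 0.24 log2 (edgeR adjusted p = 0.0277). Bub1, a checkpoint kinase, lay at the other end. After withdrawal, exonic Bub1 stood at 159, 200.2 and 216 CPM in early G1, 148, 224 and 221 CPM in late G1 and 158, 204 and 229.9 CPM in G2. With DOX, exonic Bub1 stood at 164, 164 and 184 CPM in early G1, 174, 156 and 164 CPM in late G1 and 173, 217 and 184 CPM in G2. Its phases overlapped fully, with -0.00 ± 0.27 log2 in the 6 libraries. Mad2l1, the Mad2 protein that inhibits Cdc20, was as flat. After withdrawal, exonic Mad2l1 stood at 147, 145 and 136 CPM in early G1, 159.9, 166 and 145 CPM in late G1 and 141, 146 and 151 CPM in G2. With DOX, exonic Mad2l1 stood at 125, 111 and 134 CPM in early G1, 139.9, 114 and 133 CPM in late G1 and 146, 148 and 136 CPM in G2. Its 6-library value was 0.14 ± 0.24 log2. The median of the 4 genes was 0.40 log2, with 1 called.

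Of 5 centromere and kinetochore genes, 1 was called, and the median difference in the 6 libraries was 0.76 log2. Cenpf, a large kinetochore and nuclear matrix protein, had the widest spread (chr1:191464492-191511965, minus strand). After withdrawal, exonic Cenpf stood at 108, 411 and 216 CPM in early G1, 105, 240.2 and 512 CPM in late G1 and 656, 429.5 and 575 CPM in G2. With DOX, exonic Cenpf stood at 63.3, 129.8 and 415 CPM in early G1, 314, 130.3 and 221 CPM in late G1 and 319.7, 513 and 467 CPM in G2. Its highest G2 library stood at 656 CPM and its lowest early G1 library at 63.3 CPM. Cenpf differed by 2.22 ± 0.33 log2 in the 6 libraries (edgeR adjusted p = 0.00212). Cenpe, the kinetochore kinesin, is shown next. After withdrawal, exonic Cenpe stood at 91.2, 213 and 172 CPM in early G1, 71.9, 136 and 211 CPM in late G1 and 228, 221 and 243 CPM in G2. With DOX, exonic Cenpe stood at 78.8, 115 and 225 CPM in early G1, 145, 114 and 128 CPM in late G1 and 149, 245 and 229.6 CPM in G2. Its 6-library value of 0.98 ± 0.29 log2 did not pass (edgeR adjusted p = 0.216). Ndc80, the microtubule-binding subunit of the outer kinetochore, varied less. After withdrawal, exonic Ndc80 stood at 42.8, 77.5 and 58.6 CPM in early G1, 40.4, 63.6 and 78.5 CPM in late G1 and 70.1, 80.2 and 80.4 CPM in G2. With DOX, exonic Ndc80 stood at 49.8, 51.8 and 74.4 CPM in early G1, 74.9, 56.4 and 60.5 CPM in late G1 and 72.2, 98.99 and 75.6 CPM in G2. Its value was 0.63 ± 0.27 log2 (edgeR adjusted p = 0.577). Cenpa, the centromeric histone H3 variant, ran from 46.5 to 105 CPM in early G1, 44.4 to 76.97 CPM in late G1 and 81.9 to 127 CPM in G2, with no overlap between late G1 and G2.

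The 8 mitotic kinesins had a 6-library median of 0.86 log2 and 1 called gene. That gene was Kif11, the Eg5 motor that separates spindle poles. After withdrawal, exonic Kif11 stood at 136, 352 and 180.4 CPM in early G1, 150.1, 272 and 352 CPM in late G1 and 389.9, 368 and 382 CPM in G2. With DOX, exonic Kif11 stood at 117, 177 and 312 CPM in early G1, 334, 176 and 225 CPM in late G1 and 343, 466 and 346 CPM in G2. The early G1 and G2 ranges overlapped slightly. Kif11 differed by 1.55 ± 0.26 log2 (edgeR adjusted p = 0.00342). Kif20a, the motor that brings passenger proteins to the midzone, had narrower ranges. After withdrawal, exonic Kif20a stood at 212, 336 and 275 CPM in early G1, 223, 281 and 312 CPM in late G1 and 355, 336 and 320.4 CPM in G2. With DOX, exonic Kif20a stood at 192, 253 and 340.5 CPM in early G1, 312, 255 and 287 CPM in late G1 and 320.4, 370.4 and 357 CPM in G2. All G2 libraries were above all late G1 libraries by a small margin, and the 6-library G2 minus early G1 value was 0.64 ± 0.24 log2 (edgeR adjusted p = 0.465). Kif22, a chromosome arm motor, had 0.97 ± 0.26 log2 (edgeR adjusted p = 0.12). Kif23, a subunit of centralspindlin, had 0.65 ± 0.31 log2 (edgeR adjusted p = 0.656). The other 4 kinesins (Kif2c, Kif4, Kif18a and Kif20b) ran from 0.75 to 0.91 log2, and none was called.

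Nusap1 and Prc1 were called among 7 microtubule and spindle proteins, whose median was 0.62 log2. Nusap1 crosslinks spindle microtubules near chromosomes (chr2:119444033-119475896, plus strand). After withdrawal, exonic Nusap1 stood at 45.01, 169.7 and 53.5 CPM in early G1, 43.1, 69.2 and 179 CPM in late G1 and 277, 174 and 206 CPM in G2. With DOX, exonic Nusap1 stood at 40.7, 52.2 and 159 CPM in early G1, 189, 53.5 and 72.3 CPM in late G1 and 193, 279 and 176 CPM in G2. All G2 values were above all early G1 values. Nusap1 differed by 2.56 ± 0.26 log2 from early G1 (edgeR adjusted p = 0.000111) and by 1.97 ± 0.25 log2 from late G1 (edgeR adjusted p = 0.000493). Prc1 bundles the antiparallel microtubules of the midzone. After withdrawal, exonic Prc1 stood at 43.5, 145 and 51.2 CPM in early G1, 46.2, 105 and 187 CPM in late G1 and 196, 161 and 198 CPM in G2. With DOX, exonic Prc1 stood at 42.7, 68.98 and 168 CPM in early G1, 178, 65.2 and 119.5 CPM in late G1 and 184, 312 and 186 CPM in G2. Early G1 DOX 3 lay within the G2 range. Prc1 differed by 2.40 ± 0.28 log2 from early G1 (edgeR adjusted p = 0.000207). The lowest of the 7, Ckap2, had 0.27 ± 0.24 log2.

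Condensin and chromosome structure genes numbered 8, with 2 called and a 6-library median of 0.91 log2. Top2a, topoisomerase II alpha, which untangles sister chromatids, lies at chr11:98854260-98885503, minus strand. After withdrawal, exonic Top2a stood at 350.1, 1268 and 455 CPM in early G1, 417, 989 and 1610 CPM in late G1 and 1789, 1325 and 1776 CPM in G2. With DOX, exonic Top2a stood at 288, 544 and 1212 CPM in early G1, 1472, 554 and 945 CPM in late G1 and 1507, 2042 and 1386 CPM in G2. No early G1 library reached the lowest G2 library. Top2a differed by 2.39 ± 0.25 log2 in the 6 libraries (edgeR adjusted p = 0.000111) and 1.25 ± 0.38 log2 in all 18. Smc4, a core subunit of both condensins, was called as well. After withdrawal, exonic Smc4 stood at 83.02, 236 and 144 CPM in early G1, 77.8, 214 and 287 CPM in late G1 and 263, 245 and 311 CPM in G2. With DOX, exonic Smc4 stood at 85.9, 135 and 224 CPM in early G1, 198, 133 and 162 CPM in late G1 and 201, 346 and 249 CPM in G2. Its early G1 and G2 ranges overlapped, and it differed by 1.45 ± 0.28 log2 (edgeR adjusted p = 0.0119). Smc2, the partner of Smc4, did not pass. After withdrawal, exonic Smc2 stood at 230.5, 378 and 297 CPM in early G1, 212, 421 and 399.5 CPM in late G1 and 382, 385 and 415 CPM in G2. With DOX, exonic Smc2 stood at 223, 277 and 338 CPM in early G1, 323, 276 and 302 CPM in late G1 and 319, 429.6 and 349.5 CPM in G2. Its value was 0.66 ± 0.24 log2 (edgeR adjusted p = 0.457).

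Mki67, the Ki-67 protein that coats mitotic chromosomes, did not pass either. After withdrawal, exonic Mki67 stood at 671, 1108 and 928 CPM in early G1, 610.4, 946 and 1103 CPM in late G1 and 1538, 1121 and 1190 CPM in G2. With DOX, exonic Mki67 stood at 482, 716 and 1096 CPM in early G1, 892, 709.8 and 913 CPM in late G1 and 930.4, 1062 and 1146 CPM in G2. The lowest G2 library stood above 4 of the 6 early G1 libraries, and the 6-library value was 0.91 ± 0.24 log2 (edgeR adjusted p = 0.129). Ncapd2, a condensin I subunit, was the flattest of the 8. After withdrawal, exonic Ncapd2 stood at 157, 146 and 198 CPM in early G1, 177, 137 and 218 CPM in late G1 and 213, 152 and 219 CPM in G2. With DOX, exonic Ncapd2 stood at 95.2, 156 and 192 CPM in early G1, 124, 149 and 206 CPM in late G1 and 122, 142 and 203 CPM in G2. With DOX, replicate 1 was the lowest and replicate 3 the highest library in each phase. Its 6-library value was 0.30 ± 0.31 log2 (edgeR adjusted p = 0.888).

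Ube2c, the ubiquitin-conjugating enzyme of the anaphase-promoting complex, showed the widest difference among the 54 genes, in the 6 libraries and in all 18 (chr2:164595428-164598402, plus strand). After withdrawal, exonic Ube2c stood at 23.8, 99.5 and 24.9 CPM in early G1, 26.4, 39.5 and 95.96 CPM in late G1 and 184, 106 and 108 CPM in G2. With DOX, exonic Ube2c stood at 26.3, 30.8 and 100.2 CPM in early G1, 104, 31.8 and 53.9 CPM in late G1 and 113, 172 and 115 CPM in G2. Every G2 library lay above every early G1 and late G1 library. Ube2c differed from early G1 by 2.80 ± 0.27 log2 in the 6 libraries (edgeR adjusted p = 0.000111) and 1.38 ± 0.43 log2 in all 18. From late G1 it differed by 1.94 ± 0.26 log2 in the 6 libraries (edgeR adjusted p = 0.000739). It was the single called gene of 5 in anaphase and proteolysis, whose median was 0.57 log2.

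Cdc20, the activator of that complex, did not pass (chr4:118105505-118109948, minus strand). After withdrawal, exonic Cdc20 stood at 165, 253 and 215 CPM in early G1, 172, 150.2 and 231 CPM in late G1 and 272, 251 and 237 CPM in G2. With DOX, exonic Cdc20 stood at 161, 195 and 302 CPM in early G1, 218, 194 and 212 CPM in late G1 and 218, 291 and 312 CPM in G2. A single early G1 library with DOX reached the upper G2 range. Its 6-library value was 0.57 ± 0.26 log2 (edgeR adjusted p = 0.616). Espl1, separase, which cuts cohesin at anaphase, had 0.67 ± 0.31 log2 (edgeR adjusted p = 0.638). Pttg1, the securin that holds separase inactive, had 0.40 ± 0.25 log2 (edgeR adjusted p = 0.765). The 3 cytokinesis genes gave 0 calls and a median of 0.69 log2 (edgeR; 2 at an unadjusted p below 0.05). Ect2 activates RhoA at the cleavage furrow. After withdrawal, exonic Ect2 stood at 97.6, 188 and 178 CPM in early G1, 92.7, 156 and 198 CPM in late G1 and 148, 184 and 208 CPM in G2. With DOX, exonic Ect2 stood at 80.7, 130.5 and 185 CPM in early G1, 123, 131 and 139 CPM in late G1 and 122, 200.4 and 196 CPM in G2. The ranges of the phases overlapped. Anln, anillin, links actin and septins there. After withdrawal, exonic Anln stood at 152, 246 and 231 CPM in early G1, 152, 221 and 285 CPM in late G1 and 264, 249.8 and 292 CPM in G2. With DOX, exonic Anln stood at 114, 171 and 236 CPM in early G1, 179, 168 and 198 CPM in late G1 and 173, 270.2 and 254 CPM in G2. Ect2 and Anln had 6-library values of 0.50 ± 0.31 log2 and 0.69 ± 0.27 log2, neither of which passed.

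Introns, whose reads come mostly from unspliced RNA, gave smaller differences. Over all 18 libraries the intronic median was 0.20 log2 for G2 minus early G1 and 0.19 for G2 minus late G1, and the exonic difference was the larger in 49 and 52 of 54 genes. No member was called (edgeR, 0 of 54 in each phase comparison; 0% of all genes). At an unadjusted p below 0.05, 18 were higher in G2 than in early G1, against 2.9% of all genes. The counts were 9 over late G1 (1.61% of all) and 1 for late over early G1 (1.12%), and DESeq2 gave 0 calls and 19, 9 and 1 (2.56%, 1.41% and 0.966% of all). Without G2 DOX replicate 2 the 18 became 9 and the 9 became 2. The 18 became 10 without early G1 DOX 1, 11 without early G1 withdrawn 1 or 3, and 28 without early G1 withdrawn 2. The 9 became 3 without late G1 DOX 2, 4 without late G1 DOX 3 or withdrawn 1, 5 without late G1 withdrawn 2 and 15 without late G1 withdrawn 3.

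Over the 6 libraries the intronic G2 minus early G1 median was 0.33 log2, and the exonic difference was the larger in 50 of 54 genes. The exceptions were Ccnb2, Ckap2, Ckap5 and Pttg1. Members called higher numbered 0 in each phase comparison with edgeR (0% of all genes) and with DESeq2 (0.0144%, 0% and 0% of all genes). At an unadjusted p, 11 genes were higher in G2 than in early G1 (2.94% of all), 3 higher than in late G1 (4.09%) and 1 higher in late than in early G1 (0.682%). DESeq2 gave 9, 3 and 1 (1.73%, 2.11% and 0.452% of all). Ube2c had the largest intronic value, 1.35 log2, against 2.80 in exons. After withdrawal, intronic Ube2c stood at 5.93, 14.1 and 6.52 CPM in early G1, 9.11, 8.29 and 11.8 CPM in late G1 and 16.9, 13.4 and 12.5 CPM in G2. With DOX, intronic Ube2c stood at 7.14, 7.09 and 11.2 CPM in early G1, 11.7, 7.83 and 11.8 CPM in late G1 and 13.1, 18.3 and 11.8 CPM in G2. The intronic ranges of early G1 and G2 overlapped.

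For Aurkb the 6-library intronic value was 1.25 log2, for Top2a 1.14, for Cdk1 0.57 and for Nusap1 0.80. After withdrawal, intronic Cdk1 stood at 43.8, 65.02 and 46.9 CPM in early G1, 39.5, 56.3 and 69.4 CPM in late G1 and 49.5, 54.9 and 69.9 CPM in G2. With DOX, intronic Cdk1 stood at 44.5, 50.8 and 66.5 CPM in early G1, 59.9, 54.5 and 71.02 CPM in late G1 and 66.1, 94.4 and 69.8 CPM in G2. Its intronic ranges in G2 and early G1 overlapped, whereas its exonic ones did not. Smc4 and Incenp, called in exons, had intronic values of 0.03 and -0.09. The ratio of intronic to exonic totals was 0.498 to 0.850 over the libraries and highest in early G1 DOX replicate 1, 1 of the 6, and its part in these values was not tested. Ncapd2 had more CPM over introns, 469 to 917, than over exons in every library, and without a stated strand setting reads of other transcripts in that region cannot be told apart.

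Late G1 and early G1 were hardly separated in all 18 libraries. The largest exonic late minus early G1 values were 0.54 ± 0.38 log2 for Top2a, 0.51 ± 0.30 log2 for Aurkb and 0.47 ± 0.32 log2 for Cdk1. The lowest were -0.19 ± 0.30 log2 for Plk1, -0.17 ± 0.17 log2 for Cenpa and -0.15 ± 0.26 log2 for Cenpe. No member had all 6 late G1 libraries above all 6 early G1 libraries. In the 6 libraries Top2a, Aurkb and Cdk1 had 1.39 ± 0.24 log2, 1.34 ± 0.25 log2 and 1.23 ± 0.24 log2, none of them called.

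Within groups the members deviated together. A gene's deviations from its group means were correlated with the mean deviation of the 54 genes over the 18 libraries, which share near-identical pairs and include the gene itself in that mean. The median correlation was 0.91 in exons, with 51 of 54 genes over 0.5, against a median of -0.04 and 16.4% of all genes over 0.5. Mad2l1 had the lowest value, 0.171. In introns the median was 0.73, with 42 of 54 over 0.5, against -0.02 and 17.2%, and the lowest was Ncapd2 at -0.479. The spread within a sorted group was thus largely common to these genes.

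Other cell cycle genes were set beside the members. A list of 107 other G2/M genes, 102 of them measured, had an 18-library exonic median of 0.23 log2 for G2 minus early G1. Of these, 35 were higher at an unadjusted p below 0.05, against 3.69% of all genes. In the 6 libraries 7 were called higher in G2 than in early G1, against 0.174% of all genes, with a median of 0.44. Kpna2, an importin, had 1.79 log2 (edgeR adjusted p = 0.000923). Fzr1, an activator of the anaphase-promoting complex, had 1.69 (edgeR adjusted p = 0.00212) and Depdc1b 2.03 (edgeR adjusted p = 0.00231). The others named by the same rule were Arl6ip1, Tubb5 and Aspm, at 1.55, 1.00 and 1.24. Among 40 G1/S genes the 18-library median was -0.23 for G2 minus late G1 and 0.23 for late minus early G1. At an unadjusted p below 0.05, 17 were higher in late than in early G1, against 1.03% of all genes. Cdc6, which loads the replicative helicase, was the 1 called in the 6 libraries, at -1.21 log2 for G2 minus late G1 (edgeR adjusted p = 0.0461). The difference between the lists was not tested.

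The second question is what the members did when DOX, and with it the Esrrb transgene, was withdrawn. The median exonic change (withdrawn minus DOX) was 0.06 log2 (early G1), 0.02 (late G1) and -0.02 (G2). With edgeR's quasi-likelihood test, 0 of 54 members were called in each phase, against 23 of all genes (0.163%) for early G1, 65 (0.461%) for late G1 and 137 (0.972%) for G2. At an unadjusted p below 0.05, 1 member differed in early G1 (9.63% of all genes), 4 in late G1 (13.1%) and 2 in G2 (14.4%). DESeq2 called 0, 1 and 1 (0.986%, 2.41% and 3.26% of all). Members called stayed at 0 with each of the 6 libraries of a phase left out in turn. The difference in response between phases gave 0 calls, with a smallest adjusted p among members of 0.9999 (edgeR; DESeq2 0), and 0 members had withdrawn and DOX libraries fully apart in opposite directions in 2 phases.

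Replicate numbers could be used as a block for this comparison, since libraries of one number deviated together. With that block edgeR called 568 genes (4.03%) for early G1, 1274 (9.04%) for late G1 and 1580 (11.2%) for G2, and 1 of 54 members in each, which was Ccnb2. The near-identical pairs lie within a block and DOX state, so that part of the spread in this fit comes from libraries that differ by little more than sampling noise. With counts summed over the 3 phases, which puts both libraries of each pair in 1 sum, the unblocked test called 23 genes (0.155%) and 0 members, with 4 members at an unadjusted p (14% of all genes). With the block it called 1734 genes (11.7%) and 4 members: Kif23 (0.44 log2, edgeR adjusted p = 0.0113) and Cenpf (0.43, 0.0223) were higher after withdrawal, and Ccnb2 (-0.37, 0.026) and Cdc25c (-0.33, 0.041) were lower.

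Ccnb2, cyclin B2, is a Cdk1 partner at the Golgi (chr9:70255495-70269361, minus strand). After withdrawal, exonic Ccnb2 stood at 122, 143 and 126 CPM in early G1, 122, 131 and 127 CPM in late G1 and 127, 146 and 126 CPM in G2. With DOX, exonic Ccnb2 stood at 179, 155 and 162 CPM in early G1, 186, 162 and 154 CPM in late G1 and 187, 191 and 159 CPM in G2. In each phase all 3 withdrawn libraries lay below all 3 DOX libraries, and Ccnb2 was the only one of 54 members of which that held in every phase in exons, against 2.63% of all genes. Its change was -0.34 ± 0.11 log2 (early G1), -0.40 ± 0.11 (late G1) and -0.42 ± 0.11 (G2). The edgeR adjusted p was 0.294, 0.122 and 0.0756 without the block and 0.0492, 0.0152 and 0.00925 with it. The 3 phases share near-identical libraries and are not 3 independent observations.

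**Figure D4:**
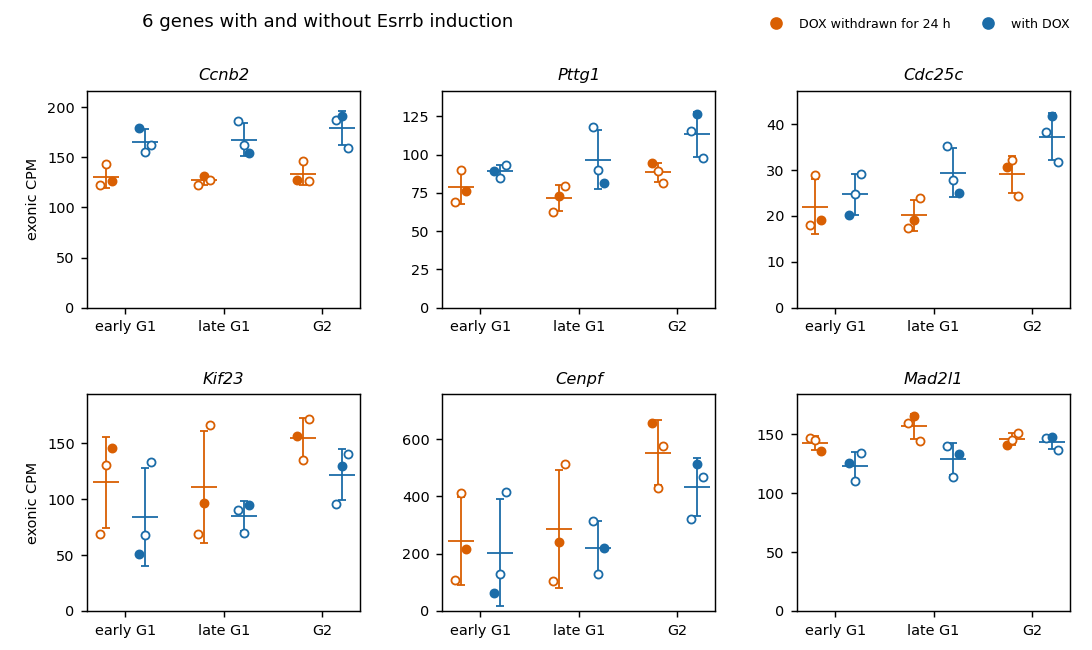
Exonic CPM (y axis) of Ccnb2, Pttg1, Cdc25c, Kif23, Cenpf and Mad2l1 in each library, withdrawn (orange, left) and DOX (blue, right) in each phase. Lines are means, bars SD (n = 3), and filled points are the 6 libraries with no near-identical partner. For Ccnb2 the withdrawn libraries, 122 to 146 CPM, all lie below the DOX libraries, 154 to 191 CPM.

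Pttg1, securin, had negative values as well, none of which passed. After withdrawal, exonic Pttg1 stood at 69.2, 90.2 and 76.2 CPM in early G1, 62.8, 73.1 and 79.4 CPM in late G1 and 94.3, 89.5 and 81.8 CPM in G2. With DOX, exonic Pttg1 stood at 89.4, 84.7 and 93.3 CPM in early G1, 118, 89.9 and 81.8 CPM in late G1 and 115, 127 and 97.6 CPM in G2. The withdrawn libraries lay below the DOX libraries in late G1 and G2 and overlapped them in early G1. Its changes were -0.18, -0.43 and -0.35 log2 in early G1, late G1 and G2 (edgeR adjusted p = 0.746, 0.197 and 0.275). Cdc25c, whose values are given above, had values of -0.17, -0.54 and -0.36 (edgeR adjusted p = 0.854, 0.233 and 0.423). Mad2l1 had positive values, the clearest in late G1, where its 3 withdrawn libraries, 145 to 166 CPM, lay above the DOX libraries, 114 to 139.9 CPM. Its changes were 0.21, 0.28 and 0.03 log2 (edgeR adjusted p = 0.559, 0.241 and 0.945).

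Kif23 and Cenpf had positive values in every phase with wide spreads. After withdrawal, exonic Kif23 stood at 69.2, 131 and 146 CPM in early G1, 69.1, 97.02 and 166 CPM in late G1 and 157, 135 and 172 CPM in G2. With DOX, exonic Kif23 stood at 50.9, 67.7 and 134 CPM in early G1, 90.8, 69.6 and 94.5 CPM in late G1 and 96.2, 129.5 and 140.5 CPM in G2. The 2 states overlapped in each phase. The Kif23 values were 0.45, 0.38 and 0.34 log2 and the Cenpf values 0.27, 0.37 and 0.35, with adjusted p from 0.690 to 0.942 (edgeR). Late G1 withdrawn replicate 3 decided both late G1 values: without it they were -0.03 for Kif23 and -0.36 for Cenpf. Plk1 had 0.30, 0.45 and 0.45 log2, and its early G1 value was -0.04 without early G1 DOX replicate 1. Kif22 had 0.33, 0.24 and 0.15 and Espl1 0.17, 0.26 and 0.39.

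After withdrawal, exonic Kif22 stood at 99.7, 144 and 104 CPM in early G1, 108, 124 and 139.7 CPM in late G1 and 169.5, 148 and 139 CPM in G2. With DOX, exonic Kif22 stood at 63.2, 85.7 and 128 CPM in early G1, 116, 89.98 and 110.5 CPM in late G1 and 118, 153 and 139 CPM in G2. For this motor the G2 states overlapped, and the early G1 ones did too. After withdrawal, exonic Espl1 stood at 107, 117 and 122 CPM in early G1, 118, 90.8 and 141 CPM in late G1 and 168, 118 and 146 CPM in G2. With DOX, exonic Espl1 stood at 51.1, 104 and 151 CPM in early G1, 77.3, 99.8 and 115 CPM in late G1 and 81.3, 100.4 and 147 CPM in G2. Separase stood lowest in the DOX replicate 1 of each phase. Prc1 had -0.23, -0.10 and -0.29 log2. Its early G1 value became 0.53 without early G1 DOX replicate 3, 0.07 without withdrawn replicate 1 and 0.02 without withdrawn replicate 3. In the 6 libraries with no near-identical partner the withdrawal gave 0 called members (edgeR and DESeq2) of 4 called genes (0.029%), and 5 members at an unadjusted p, against 8.74% of all genes. The 0 became 2 without late G1 DOX replicate 3 or late G1 withdrawn replicate 2.

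Intronic levels after withdrawal gave 0 called members in each phase, with edgeR and with DESeq2. Of all genes edgeR called 0 (0%), 2 (0.0142%) and 2 (0.0142%) in early G1, late G1 and G2, and DESeq2 0.0924%, 0.128% and 0.32%. The medians were -0.10, -0.07 and -0.16 log2. Without adjustment (p below 0.05), 3 members differed in each phase, against 5.73%, 5.83% and 7.7% of all genes. Mki67 was the 1 member of 54 whose withdrawn libraries lay below its DOX libraries in all 3 phases, against 0.767% of all genes. After withdrawal, intronic Mki67 stood at 30.9, 28.7 and 26.9 CPM in early G1, 30.8, 33.4 and 32.4 CPM in late G1 and 35.4, 30.7 and 34.6 CPM in G2. With DOX, intronic Mki67 stood at 37.03, 37.1 and 36.2 CPM in early G1, 41.9, 34.4 and 35.9 CPM in late G1 and 40.6, 47.8 and 38.5 CPM in G2. Its exonic values showed no such order. Summed over the phases, 0 members were called (0% of all genes), with 2, Prc1 and Mki67, at an unadjusted p below 0.05 (6.73% of all genes), and with the block 521 genes (3.48%) and 1 member, Prc1, at -0.47 log2 (edgeR adjusted p = 0.0144). Over the 6 libraries edgeR called 0 members and 0% of all genes, with 1 member and 5.01% of all genes at an unadjusted p below 0.05.

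The third question is where Esrrb bound near these genes. The peaks are those the authors list (14559, mm9), chosen by them from these libraries, so that their heights describe sites picked for binding. Within 50 kb of a member's start lay 105 peaks, near 38 of the 54 genes (70.4%), against 51.2% of all 20298 genes. Of these peaks, 34 had no other gene's start nearer, and the rest lay closer to another start than to the member's. A peak lay within 10 kb of 22 members (40.7%), against 22.3% of all genes, and within 1 kb of 11 members (20.4%), against 7.89%. The median distance to the nearest peak was 18808 bases for the members and 47024.5 for all genes. All genes here include those that did not pass the filter on low counts, which all 54 members passed. No share was taken over the genes that passed, so whether the members differ from other expressed genes was not tested. Of the 105, 55 lay upstream of the start and 50 downstream, and 11 overlapped the member gene. Birc5 had the most, 8. The 11 members with a peak within 1 kb were Hmmr, Nek2, Cdc20, Cenpa, Mad2l1, Ect2, Bub1b, Cenpf, Plk1, Kif18a and Cdca2. The authors' deposited table has 20 of the 105 (19%) classed as Bookmarked, against 1980 of all 14559 peaks (13.6%), and the 20 lay near 15 genes. Peaks and classes come from the same table as the heights, so the single-peak values below describe these sites and do not test their classes.

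Heights in that table are log2 of reads per kb of peak and M reads. The median height over the 105 peaks was -3.06 and -1.09 in the mitosis libraries after withdrawal, against -0.86, -0.34, -0.42 and -0.44 with DOX. In interphase it was -3.16 and -1.19 after withdrawal, against 0.69, 1.51, 1.41 and 2.32 with DOX. Over all peaks the medians were -2.80 and -1.09 in mitosis after withdrawal, against -0.95, -0.37, -0.47 and -0.42 with DOX, and -2.84 and -1.34 in interphase after withdrawal, against 0.84, 1.71, 1.38 and 2.32 with DOX. With limma and Benjamini-Hochberg adjustment, 93 of 105 were lower in mitosis than in interphase with DOX (91.4% of all peaks), with a median of -2.12 log2 (-2.26 over all). Withdrawal lowered 104 in interphase (99.6% of all), with a median of -3.79 (-3.74 over all), and 28 in mitosis (22.4% of all), with a median of -1.46 (-1.33 over all). The shares among the members' peaks were near those of all peaks, so that the direction is that of the whole table.

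These counts depend on how whole libraries are scaled. After quantile normalisation, which gives each library the same distribution, the direction was no longer shared. Between mitosis and interphase 11 of the 105 differed (8.4% of all), of which 9 were higher in mitosis and 2 lower, and over all peaks 827 were higher and 396 lower. On withdrawal 5 differed in interphase (3.24% of all), 2 higher and 3 lower, and 3 in mitosis (4.19%), all lower. The 28 in mitosis became 7 without DOX replicate 4 (6.21% of all peaks), 11 without DOX replicate 2 (9.25%) and 17 without DOX replicate 3 (13.9%). They became 7 without both E14Tg2a libraries (4.5% of all). Leaving out a withdrawn mitosis library leaves that group with 1 library. Without withdrawn replicate 1 the median was -0.59 log2 (-0.56 over all peaks), and without withdrawn replicate 2 it was -2.46 (-2.145 over all). Libraries did not overlap between mitosis and interphase with DOX in 90 of 105 (88% of all peaks), between withdrawn and DOX in interphase in 105 (99.4%), and in mitosis in 47 (47.4%).

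**Figure D5:**
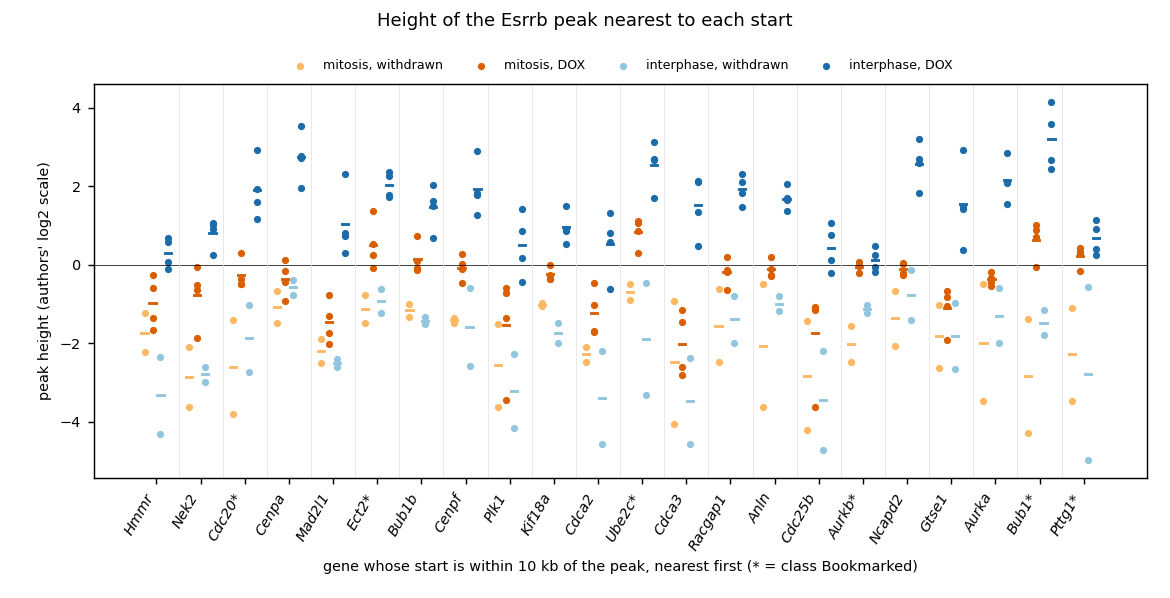
Height (y axis, log2 reads per kb and M reads) of the nearest Esrrb peak in each ChIP-seq library for the 22 members with a peak within 10 kb, nearest first; dashes are group means and stars mark Bookmarked peaks. Interphase with DOX (dark blue) has the highest mean for each gene, with the smallest distance to mitosis with DOX (dark orange) at Aurkb.

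Cdc20 had a Bookmarked peak 53 bases from its start (chr4:118110001-118111500). In mitosis, the Cdc20 peak stood at -3.80 and -1.41 after withdrawal, against -0.50, -0.36, -0.49 and 0.29 with DOX. In interphase, the Cdc20 peak stood at -2.73 and -1.02 after withdrawal, against 1.16, 1.92, 1.61 and 2.92 with DOX. All interphase DOX libraries stood above all others. The mitosis minus interphase difference with DOX was -2.17 ± 0.58 log2 (limma adjusted p = 0.00195), and withdrawal in mitosis gave -2.34 ± 0.71 log2 (limma adjusted p = 0.026). Ect2 had another, 301 bases from its start (chr3:27053101-27055650). In mitosis, the Ect2 peak stood at -1.48 and -0.77 after withdrawal, against 1.37, 0.25, -0.09 and 0.52 with DOX. In interphase, the Ect2 peak stood at -1.22 and -0.62 after withdrawal, against 1.78, 2.26, 1.73 and 2.36 with DOX. The mitosis DOX libraries stood above both withdrawn libraries. Its mitosis minus interphase difference was -1.52 ± 0.44 log2 (limma adjusted p = 0.00351).

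Ube2c, the member with the widest phase difference, had a Bookmarked peak at 1028 bases (chr2:164593651-164594400). In mitosis, the Ube2c peak stood at -0.48 and -0.89 after withdrawal, against 1.07, 0.85, 0.30 and 1.11 with DOX. In interphase, the Ube2c peak stood at -3.32 and -0.46 after withdrawal, against 1.70, 3.14, 2.67 and 2.70 with DOX. It kept a positive height in mitosis with DOX. The difference between mitosis and interphase was -1.72 ± 0.51 log2 (limma adjusted p = 0.0039). Withdrawal in mitosis gave -1.52 ± 0.62 log2 at the Ube2c peak, which did not pass (limma adjusted p = 0.07225). Cdk1 had 1 at 12741 bases (chr10:68828401-68830200). In mitosis, the Cdk1 peak stood at -3.06 and -1.03 after withdrawal, against 0.44, 0.19, 0.09 and 0.77 with DOX. In interphase, the Cdk1 peak stood at -3.26 and -0.90 after withdrawal, against 0.98, 2.08, 1.24 and 3.58 with DOX. Its values were -1.60 ± 0.59 log2 between mitosis and interphase (limma adjusted p = 0.0155) and -2.42 ± 0.73 log2 on withdrawal in mitosis (limma adjusted p = 0.025). Bub1, flat between phases in RNA, had 1 at 7406 bases (chr2:127665001-127666050). In mitosis, the Bub1 peak stood at -4.29 and -1.37 after withdrawal, against 1.02, 0.70, -0.06 and 0.89 with DOX. In interphase, the Bub1 peak stood at -1.80 and -1.16 after withdrawal, against 2.44, 3.60, 2.67 and 4.16 with DOX. Its withdrawal value in mitosis, -3.47 ± 0.66 log2, passed (limma adjusted p = 0.0038). Single calls on withdrawal in mitosis, here and at Aurkb below, rest on 2 withdrawn libraries and on limma's trend setting. Without the trend, 2 of the 105 peaks were called (1.63% of all peaks), against 28 (22.4%) with it.

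Aurkb and Pttg1 had the nearest peaks with the smallest difference between mitosis and interphase. The Aurkb peak lay 3894 bases from its start (chr11:68853751-68855250). In mitosis, the Aurkb peak stood at -2.48 and -1.55 after withdrawal, against -0.02, -0.02, -0.20 and 0.06 with DOX. In interphase, the Aurkb peak stood at -1.23 and -1.02 after withdrawal, against -0.19, -0.06, 0.49 and 0.24 with DOX. Mitosis and interphase with DOX overlapped, with -0.16 ± 0.54 log2 (limma adjusted p = 0.766). Withdrawal gave -1.24 ± 0.66 log2 in interphase, which did not pass (limma adjusted p = 0.0707), and -1.97 ± 0.66 log2 in mitosis (limma adjusted p = 0.0363). The Pttg1 peak lay 8400 bases away (chr11:43230151-43231350). In mitosis, the Pttg1 peak stood at -3.48 and -1.09 after withdrawal, against 0.29, 0.44, -0.17 and 0.33 with DOX. In interphase, the Pttg1 peak stood at -4.99 and -0.56 after withdrawal, against 0.26, 1.14, 0.91 and 0.41 with DOX. Its mitosis minus interphase value was -0.46 ± 0.73 log2 (limma adjusted p = 0.541). Both are Bookmarked in the authors' deposited table.

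Peaks at other starts are classed as Lost. Of all peaks, 91.4% were called lower in mitosis than in interphase with DOX. In 88% every mitosis library with DOX lay below every interphase library with DOX, so the order below is that of most peaks. For Plk1, 400 bases away (chr7:129301951-129302550), heights with DOX were -3.45, -0.58, -0.73 and -1.35 in mitosis, against -0.44, 0.18, 0.87 and 1.41 in interphase. Every mitosis library lay below every interphase library, with -2.03 ± 0.83 log2 (limma adjusted p = 0.0252). For Cenpa, 124 bases away (chr5:30968701-30969150), they were -0.45, 0.12, -0.16 and -0.93 in mitosis, against 1.96, 2.73, 2.78 and 3.54 in interphase. This was a wide gap, -3.11 ± 0.45 log2 (limma adjusted p = 9.17e-06). For Cenpf, 386 bases away, they were 0.02, -0.12, 0.27 and -0.47 in mitosis, against 1.26, 1.78, 1.82 and 2.90 in interphase, and for Mad2l1, 211 bases away, -2.03, -1.75, -1.31 and -0.76 in mitosis, against 0.29, 0.73, 0.80 and 2.32 in interphase. In both, every mitosis library lay below every interphase library.

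Of the members described for the withdrawal, Ccnb2, Kif23, Cdc25c and Mki67 had no peak within 50 kb. The nearest peak lay 65040 bases from the start of Ccnb2 (chr9:70334401-70336200), 74256 bases from Kif23, 63564 bases from Cdc25c and 117962 bases from Mki67. The Ccnb2 one had heights with DOX of 0.20, -0.73, -0.22 and -0.57 in mitosis, against 1.53, 2.85, 2.01 and 3.14 in interphase. It was lower in mitosis in every library. For Nusap1 the nearest lay at 22733 bases and for Top2a at 35298 bases, both Lost. For Ccnb1, at 37341 bases (chr13:101518651-101519100), the heights with DOX were 0.33, -0.75, -0.09 and -0.02 in mitosis, against 2.34, 2.51, 2.55 and 4.89 in interphase. Whether distance to a peak goes with the response of a gene was not tested.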

How the data were processed

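Stranded mRNA-seq (Illumina TruSeq Stranded mRNA, per the labels' protocols) was counted by the authors over exons and over introns. The deposited tables hold raw counts per gene, per the file headers. The submitters' processing notes name CASAVA 1.8, Bowtie, DESeq2 and build mm9. For counting tool and strand setting, none is given in the sources used here, so overlapping and antisense genes are uncertain. The authors deposited 1 table of Esrrb peaks with a height per ChIP-seq library. Its log2 heights were read from the steps of the values as reads per kb and M reads, and columns headed noco were taken as mitosis and asy as interphase.

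Counts of 18 libraries entered edgeR 4.0.16 (R 4.3.3) as 6 group means, with filterByExpr, TMM scaling, quasi-likelihood tests and Benjamini-Hochberg adjustment at 0.05 over 14092 exonic and 14075 intronic genes. Phase differences are means over both DOX states. The 6-library fit took phase and DOX state as terms. CPM are TMM-scaled, and the SE of a log2 difference is its absolute value over the square root of F. Peak heights entered limma 3.58.1 with trend. DESeq2 1.42.0, other scalings and filters, left-out libraries, other peak windows and quantile normalisation were alternatives; the 6-library and summed fits were chosen after the data were seen. The tests were run on simulated data with known changes. For counts, the simulated libraries were independent, had less spread than these and held no near-identical pairs. How the fits behave with such pairs was not tested by that check.

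In withdrawal pairs, same-numbered exonic libraries had correlated deviations (0.114 to 0.527 over the 9 pairs, each above 0.1), so the numbers pair these samples. The intronic pairs of early G1 reached 0.092 at the lowest.

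The members, roles and lists were chosen with earlier results of these data known. Full values are given for called members, for a set of 22 fixed by role and for the 3 largest changes each way in a contrast. Of 107 other G2/M genes, 102 matched by symbol.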

Additional observations from a re-analysis of the deposited data

Results flagged for a closer look

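Of 76 groups of 4 ChIP-seq libraries (the nearest peak of each member with a peak within 50 kb, in 2 groups), 5 held 1 library far from the other 3, by a gap past Dixon's limit for groups of this size. Chance gives about 1 in 20 such groups. In mitosis with DOX, replicate 1 stood at -3.62 for the nearest peak of Cdc25b (the others -1.16 to -1.07), at 0.29 for Ncaph (-0.35 to -0.24) and at -2.03 for Prc1 (0.35 to 0.49). In interphase with DOX, replicate 4 stood at 4.89 for Ccnb1 (2.34 to 2.55) and at 2.43 for Incenp (0.69 to 0.79). Heights are log2 of reads per kb and M reads. Depth differs between these libraries and its part was not tested.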

How the results depend on the processing

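Phase calls depend on the near-identical libraries. Exonic members called higher in G2 were 0 over early G1 and 0 over late G1 in all 18 libraries, against 14 and 4 in the 6 with no such partner and 0 and 0 with 18 libraries in the same additive model. With no filter on low counts the 6-library G2 minus late G1 count was 9 (0.158% of all genes) and the late minus early G1 count 4 (0.0225%), and with DESeq2 they were 10 (0.152%) and 4 (0.029%). At an unadjusted p, late over early G1 gave 1 member with the replicate block, 12 in the 6 libraries and 0 in the additive 18. Leaving out 1 library at a time gave 23 to 48 (G2 over early G1), 16 to 42 (G2 over late G1) and 0 to 7 (late over early G1) at an unadjusted p in 18 libraries. In the 6, where it leaves 1 residual degree of freedom, it gave 11 to 25, 2 to 10 and 0 to 6 called, and 19 to 48, 12 to 32 and 7 to 32 at an unadjusted p.

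For introns at an unadjusted p, G2 over early G1, G2 over late G1 and late over early G1 gave 28, 20 and 4 with the replicate block. The first 2 gave 11 and 3 in the 6 libraries (2.94% and 4.09% of all genes). With the pair of 2.72 kept (8 libraries) the 3 comparisons gave 18, 9 and 2, and with the additive 18 they gave 23, 9 and 2. Shares over all genes are not given here for the block, 8-library and additive fits, so their counts are not read as results about the members. Leaving out a library gave 9 to 28, 2 to 15 and 0 to 5 in 18 libraries, and 3 to 24, 1 to 11 and 1 to 6 in the 6, where 0 to 1 were called over early G1.

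For withdrawal, the replicate block called 1 member in each phase, and DESeq2 called 1 in late G1 and 1 in G2 (2.41% and 3.26% of all genes). Summed over phases the block called 4 in exons and 1 in introns. Withdrawal in the additive 18 called 3 exonic members (21.2% of all genes) and 3 intronic ones (5.35%), and the 6 libraries gave 0 to 2 in exons with 1 left out. The block changed no other call among the members.

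For peaks, 91.4%, 99.6% and 22.4% of all were called in mitosis against interphase, on withdrawal in interphase and on withdrawal in mitosis. In the same order, calls among the members' peaks were 26, 28 and 6 of 29 within 10 kb and 174, 192 and 54 of 193 within 100 kb. They were 31, 33 and 8 of the 34 peaks with no other gene's start nearer, all lower. After quantile normalisation the calls among the 105 were 11 (9 higher, 2 lower), 5 (2 higher, 3 lower) and 3 (all lower). The shares of all peaks were then 8.4%, 3.24% and 4.19%. Before it, all 105 mitosis minus interphase values were negative (highest -0.165), with a median of -2.12 log2. After it their median was 0.12 log2, against -0.058 over all peaks, so the direction of the set was not kept. In mitosis, withdrawal gave 2 without the trend, 7 without E14Tg2a and 0 to 61 with 1 library left out. Leaving out 1 library gave 74 to 96 and 91 to 104 in the other comparisons. The ChIP-seq numbers did not pair (correlations -0.417 to 0.504), and a replicate block gave 101, 105 and 41 (96.4%, 99.9% and 36.8% of all peaks).

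Single genes changed sign where values were near 0. In the 6 libraries Bub1 was -0.003 (G2 minus early G1) and -0.026 (G2 minus late G1), Mad2l1 -0.041 and Ncapd2 -0.018 (both G2 minus late G1). With 1 library left out, G2 minus late G1 ran from -0.005 (without late G1 DOX 2) to 0.060 for Mad2l1 and from -0.064 (without G2 DOX 3) to 0.169 for Ncapd2, which was also -0.024 without late G1 withdrawn 2 and -0.027 without late G1 DOX 1. On withdrawal in early G1, Plk1 ran from -0.041 (without DOX 1) to 1.068 and Prc1 from -0.981 to 0.533 (without DOX 3), with 0.067 without withdrawn 1 and 0.023 without withdrawn 3. In late G1, Kif23 ran from -0.033 to 0.633 and Cenpf from -0.359 to 0.764, both lowest without withdrawn 3. Of 1059 alternatives for named genes, 1028 kept direction and call. The cause was not tested. Depth, 11.1 to 31.8 M exonic counts, limits the low genes most.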
